A study of Mus musculus with 41 samples.

Results

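The Gadd45 family has 3 genes in the mouse, Gadd45a, Gadd45b and Gadd45g, and they were taken by their symbols from 22438 genes with footprint counts and 55385 genes with mRNA estimates. All 3 were found in both kinds of data, each under 1 gene identifier, and none was lost to the filter on low counts in any gene-level comparison below. The proteins are small, acidic and inducible by stress. They bind MAP3K4, the kinase above p38 and JNK, as well as PCNA, the clamp of DNA replication and repair, and the mitotic kinase CDK1. Their mRNAs are short-lived and are known targets of nonsense-mediated decay (NMD), the pathway in which UPF2 links UPF1 to the exon junction complex, and GADD45 proteins have been tied to the death of NMD-deficient cells. HBS1L and PELO act elsewhere, on ribosomes that stall on an mRNA, which they help to split. The question put here to the family was how its mRNAs and the ribosomes on them differed after loss of each of these 3 factors.

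The gene bodies lie on GRCm38 (mm10) at chr6:67035096-67037457 on the minus strand for Gadd45a (ENSMUSG00000036390.8), at chr10:80930073-80932204 on the plus strand for Gadd45b (ENSMUSG00000015312.9) and at chr13:51846678-51848468 on the plus strand for Gadd45g (ENSMUSG00000021453.2). In Gencode M21 the main transcripts, Gadd45a-201, Gadd45b-201 and Gadd45g-201, measured 1223, 1284 and 1071 bases and each had 4 exons. Their coding sequences were 495, 480 and 477 bases long before the stop codon. Exon 2 was 102 bases in all 3 genes and coding throughout, and is shown because it lets the members be compared base by base without gaps. Capitals mark the 49 positions at which all 3 genes carry the same base.
Gadd45a exon 2, chr6:67037010-67037111, minus strand: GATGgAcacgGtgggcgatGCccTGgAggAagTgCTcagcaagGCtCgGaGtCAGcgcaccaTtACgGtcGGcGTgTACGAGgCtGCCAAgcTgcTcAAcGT
Gadd45b exon 2, chr10:80930448-80930549, plus strand: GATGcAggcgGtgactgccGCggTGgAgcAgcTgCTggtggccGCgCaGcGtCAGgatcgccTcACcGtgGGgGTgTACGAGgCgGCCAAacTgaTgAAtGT
Gadd45g exon 2, chr13:51847352-51847453, plus strand: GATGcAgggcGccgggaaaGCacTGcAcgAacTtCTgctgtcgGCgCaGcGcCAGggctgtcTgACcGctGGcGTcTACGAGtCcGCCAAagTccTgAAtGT
In this exon Gadd45b and Gadd45g shared 65.7% of bases, Gadd45a and Gadd45b 62.7%, and Gadd45a and Gadd45g 58.8%. Over the whole coding sequences the longest run of bases common to any pair was 17, between Gadd45a and Gadd45g.

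The stop codons are shown because an exon junction well downstream of the stop is the classical mark of an NMD target. Each line gives 15 bases before the stop codon, the stop codon in capitals and 12 bases after it.
Gadd45a-201: aatctcccggaacggTGAtggcatccgaat
Gadd45b-201: tctctagaggaacgcTGAgacccactccaa
Gadd45g-201: atcacccttcccgagTGAcagcctggcagg
All 3 transcripts stop at TGA in the last exon, 111, 111 and 108 bases after the last junction, so that 0 junctions follow the stop codon. No ATG was found in the 5′ untranslated regions of 162, 243 and 102 bases. The 3′ untranslated regions were 563, 558 and 489 bases. The annotation held 12 transcripts of the family, of which 4, 1 and 1 were classed as retained introns and 0 as targets of NMD.

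The 150 bases before each RefSeq start site (GRCm38.p6) are shown because the 3 genes moved together in 1 of the mutants below. Capitals mark matches, on either strand, to the CCAAT box, to the TATA box motif TATAAA, to the E box CACGTG and to the octamer ATTTGCAT.
Gadd45a, chr6:67037408-67037557, minus strand: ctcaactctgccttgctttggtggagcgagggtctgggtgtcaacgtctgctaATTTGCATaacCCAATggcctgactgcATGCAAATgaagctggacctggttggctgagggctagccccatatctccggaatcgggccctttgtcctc
Gadd45b, chr10:80929941-80930090, plus strand: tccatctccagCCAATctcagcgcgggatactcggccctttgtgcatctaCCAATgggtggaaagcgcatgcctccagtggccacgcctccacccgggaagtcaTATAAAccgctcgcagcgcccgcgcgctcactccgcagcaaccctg
Gadd45g, chr13:51846525-51846674, plus strand: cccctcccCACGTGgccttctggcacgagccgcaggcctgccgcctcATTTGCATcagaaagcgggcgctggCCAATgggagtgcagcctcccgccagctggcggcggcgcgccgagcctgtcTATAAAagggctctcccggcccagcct
CCAAT was present in all 3 windows and in 24.5% of 32817 promoter windows of this length. TATAAA was in the windows of Gadd45b and Gadd45g and in 7.58% of all windows, ATTTGCAT in those of Gadd45a and Gadd45g and in 0.999% of all, and CACGTG in that of Gadd45g and in 4.30% of all. These matches are descriptions of letters and not of bound factors.

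The series holds 30 ribosome profiling libraries (ribosome-protected footprints, RPFs) and 11 RNA-seq libraries. Whole embryos at embryonic day 8.5 (C57BL/6NJ, Hbs1l -/- against wildtype) and cerebella at postnatal day 14 (C57BL/6J, Atoh-Cre;Hbs1l cKO against Atoh-Cre;Hbs1l +/+) were profiled for footprints, with 3 libraries per group. Primary mouse embryonic fibroblasts (MEFs; C57BL/6) carried the tamoxifen-inducible CAG-Cre ER transgene alone as controls, or with Hbs1l cKO, Pelo cKO or Upf2 cKO alleles, and every MEF group, controls included, had received tamoxifen. Per the study's methods, MEFs and cerebella of all groups also carried the B6J allele of n-Tr20, a mutated arginine tRNA gene. The paper calls this tRNA brain-specific and ties the allele to ribosome pausing at AGA codons in cerebellar mRNAs. The Hbs1l null line was backcrossed to introduce the allele, and the methods do not list it for the embryo libraries. Several embryos were pooled for each embryo library, and each MEF library came from 1 embryo. By the same methods Hbs1l cKO cerebella and Hbs1l cKO MEFs were Hbs1l fl/-, while Pelo cKO and Upf2 cKO MEFs were fl/fl. Atoh1-Cre is known to act in granule cell precursors, so that cells of the mutant cerebellum without Cre carry a null allele and an undeleted one. Footprint groups had 3 libraries each and were sequenced with their controls in pools of 6. RNA-seq groups had 3 libraries, except Pelo cKO with 2, since 1 library was left out by the submitters as an outlier.

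Library totals ran from 2634480 to 7298812 footprints in embryos, from 10919139 to 22591768 in cerebella and from 5782990 to 25607974 in MEFs, and from 22713643 to 86425762 estimated counts in RNA-seq. MEF control footprint libraries with the same number in the 3 pools differed by a chi-square of 1.10 to 1.18 per gene with at least 10 counts, near the value of 1 for counting noise, against 3.92 to 11.1 for different numbers, so that the 3 MEF footprint comparisons share their control cells and are not independent, as do the 3 RNA comparisons. All 10 fibroblast markers were detected in every MEF library, and also in every embryo and cerebellum library, so that detection does not set MEFs apart. Their summed footprints were 43608 to 45929 CPM in control MEFs of the Hbs1l pool. In control embryos the sums were 2579 to 3375 CPM and in control cerebella 1941 to 5195 CPM. Hbs1l footprints fell in Hbs1l mutants to 0.0905-fold of control in embryos, 0.378-fold in cerebella and 0.0547-fold in MEFs, and Pelo footprints fell to 0.0751-fold in Pelo cKO MEFs. Upf2 went against its label: its footprints were 117 ± 2.04 CPM (footprints scaled to the library total; SD, n = 3) in the libraries labelled Upf2 cKO against 52.9 ± 5.49 in controls, and its mRNA was 14.6 ± 6.01 against 4.65 ± 0.911 TPM (mRNA scaled to transcript length and library total). These gene totals include reads outside any deleted exons, which are not given in the sources used here, so they do not check the label. The study reports that NMD transcripts and retained-intron transcripts built up in its Upf2 mutant MEFs specifically. Directions for this group refer to the libraries labelled Upf2 cKO.

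In control tissues the family differed mostly in Gadd45b and Gadd45g. Control MEFs carried many more footprints on both genes than control embryos or cerebella, while Gadd45a was of the same order in all. Gadd45a gave 20.5, 23.1 and 19.4 CPM in control embryos, 16.2, 17.3 and 19.9 CPM in control cerebella and 11.5, 9.25 and 12.8 CPM in control MEFs of the Hbs1l pool. Gadd45b gave 2.66, 5.65 and 2.39 CPM in embryos, 10.5, 12.5 and 13.4 CPM in cerebella and 51.8, 63.2 and 51.3 CPM in MEFs. Gadd45g gave 36.4, 17.5 and 25.2 CPM in embryos, 33.7, 37.7 and 43.6 CPM in cerebella and 167, 209 and 163 CPM in MEFs. The tissues did not overlap for Gadd45b. For Gadd45g, MEFs stood apart, and the embryo library at 36.4 CPM lay within the cerebellar range.

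By edgeR (quasi-likelihood F test, p adjusted over all genes after Benjamini and Hochberg), Gadd45b footprints were higher in MEFs than in embryos by a log2 fold change of 4.35 (SE 0.22, adjusted p = 4.12e-12) and Gadd45g footprints by 3.31 (SE 0.18, adjusted p = 7.93e-12). Against cerebella the differences in MEFs were 2.60 for Gadd45b and 2.65 for Gadd45g, with adjusted p of 1.81e-07 and 2.27e-07. Gadd45b was lower in embryos than in cerebella by a log2 fold change of -1.79 (adjusted p = 0.000491) and Gadd45g by -0.67 (adjusted p = 0.0199). Gadd45a was lower in MEFs than in embryos (-0.43, adjusted p = 0.0341), and its other differences missed the threshold (MEFs against cerebella -0.26, adjusted p = 0.136; embryos against cerebella 0.15, adjusted p = 0.448). Most genes passed these tests, 77.6% of genes between MEFs and embryos, 82.1% between MEFs and cerebella and 80.2% between embryos and cerebella, and the median gene moved by -0.01, -0.15 and -0.21. Tissue, sequencing pool and strain cannot be told apart in these 3 comparisons. Nor can culture and tamoxifen treatment, which only the MEFs had, be told apart from tissue. By the study's methods, cerebellar footprints were also cut from a narrower range of fragment sizes than those of embryos and MEFs. The calls on Gadd45g between embryos and cerebella and on Gadd45a between MEFs and embryos were lost when single libraries were left out (adjusted p up to 0.0764 without embryo control 2, and up to 0.154 without MEF control 2).

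Set per kilobase of coding sequence, which allows genes to be compared, Gadd45g took the largest share of the family's footprints in every control group: 51.6% ± 11.97 (SD, n = 3) in embryos, 56.7% ± 0.505 in cerebella and 73.1% ± 1.25 in MEFs of the Hbs1l pool. Gadd45a took 41.0% ± 7.79, 25.4% ± 0.650 and 4.49% ± 1.18, and Gadd45b 7.33% ± 4.39, 17.9% ± 0.625 and 22.4% ± 0.0718. The order of Gadd45a and Gadd45b was thus reversed between embryos and MEFs. In embryos the shares of Gadd45a and Gadd45g differed by less than the SD of Gadd45g, though by more than that of Gadd45a.

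**Figure D1:**
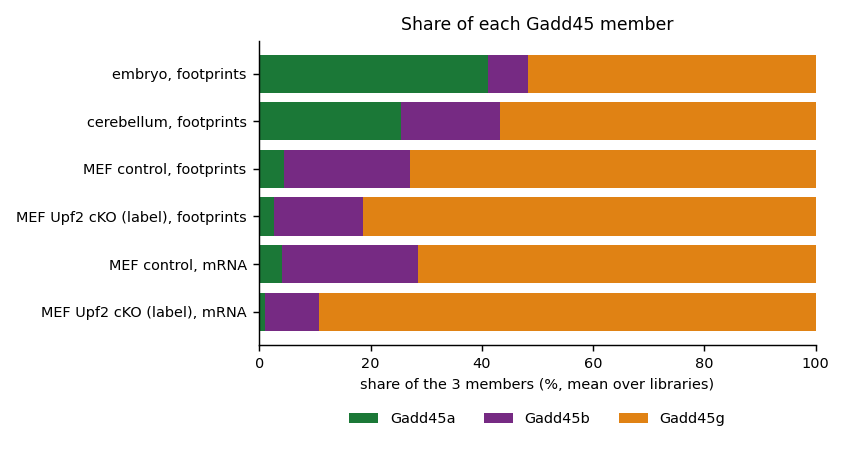
Share of each member in the summed family level (x axis, percent, mean over libraries) for footprints per kilobase of coding sequence and for mRNA in TPM, by group (y axis). Gadd45g held the largest share in all 6 groups, and its share of mRNA was 89.3% in the libraries labelled Upf2 cKO against 71.5% in controls.

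The mRNAs of all 3 members were higher in MEF libraries labelled Upf2 cKO than in control MEFs, by 2.98-fold for Gadd45a, 4.34-fold for Gadd45b and 13.8-fold for Gadd45g on the TPM scale. Gadd45a was at 22.5, 17.6 and 19.0 TPM against 6.21, 7.14 and 6.51 TPM in controls. Gadd45b was at 171, 173 and 170 TPM against 43.1, 39.5 and 35.7 TPM. Gadd45g was at 1702, 1436 and 1644 TPM against 118, 118 and 111 TPM. The groups did not overlap for any member, and the least different pair of libraries still differed more than the spread within either group.

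In the test on estimated counts, the log2 fold changes were 1.63 for Gadd45a (SE 0.15, adjusted p = 5.83e-05), 2.17 for Gadd45b (SE 0.14, adjusted p = 4.52e-06) and 3.83 for Gadd45g (SE 0.16, adjusted p = 2.51e-07). Against these 3 of 3, 13.2% of 15983 genes were called higher and 20.0% were called in either direction. Among 9953 genes with a mean of at least 5 CPM, Gadd45g had the 8th largest log2 fold change, Gadd45b the 46th and Gadd45a the 102nd. Leaving out any 1 library kept the 3 calls. The family's summed mRNA went from 162 ± 7.79 TPM in controls to 1785 ± 141 TPM (SD, n = 3 each), and the share of Gadd45g in it from 71.5% ± 0.893 to 89.3% ± 0.870. In bulk samples, a different number of expressing cells and a different amount of RNA per cell cannot be told apart.

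**Figure D2:**
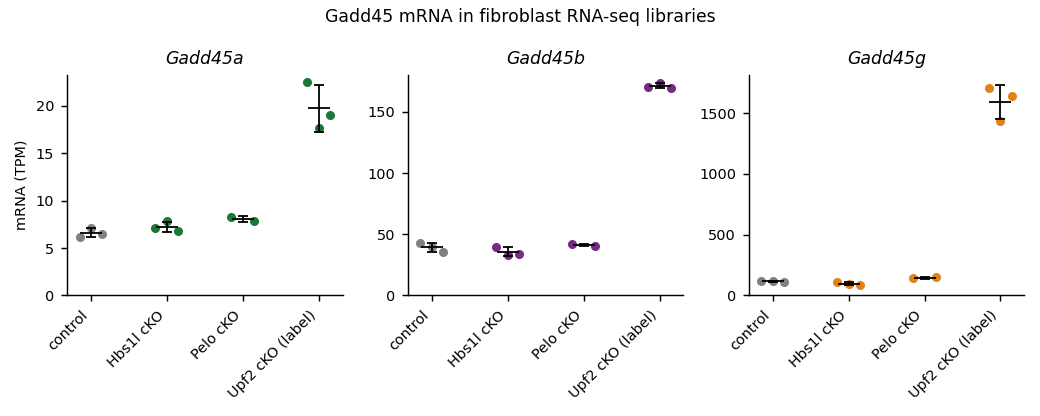
mRNA of each member (y axis, TPM, linear from 0) in every MEF RNA-seq library by genotype (x axis); points are libraries, and bars give the mean and SD over 3 libraries (2 for Pelo cKO). The libraries labelled Upf2 cKO lie highest for each member, at 17.6 to 22.5 TPM for Gadd45a, 170 to 173 TPM for Gadd45b and 1436 to 1702 TPM for Gadd45g.

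Footprints on the 3 members were also higher in the libraries labelled Upf2 cKO, by less than their mRNAs. Gadd45a gave 25.9, 25.3 and 21.01 CPM against 10.9, 11.9 and 11.6 CPM in the controls of the same pool. Gadd45b gave 134, 141 and 145 CPM against 55.4, 64.5 and 48.1 CPM. Gadd45g gave 580, 744 and 858 CPM against 169, 202 and 165 CPM. Again no groups overlapped. The log2 fold changes were 1.03 for Gadd45a (SE 0.12, adjusted p = 5.10e-05), 1.27 for Gadd45b (SE 0.11, adjusted p = 7.30e-06) and 1.98 for Gadd45g (SE 0.14, adjusted p = 2.69e-06), where 22.3% of 12166 genes were called higher and 43.4% in either direction. By size of increase the members stood at positions 255, 154 and 58 of 9831 genes. Leaving out any 1 library kept these calls too. Fibroblast markers (10) summed to 48751.4 to 52118.5 CPM in the libraries labelled Upf2 cKO and 43776.6 to 46019.9 CPM in their controls. Macrophage markers (8 of 8 detected) summed to 146 to 186 CPM against 106 to 141 CPM. Endothelial markers (7) summed to 55.0 to 61.6 against 68.9 to 82.7 CPM, with 1 of the 7 at 0 in both groups. Epithelial markers (5) summed to 19.9 to 25.2 against 39.3 to 52.0 CPM, and markers of cerebellar glia (7) to 33.8 to 45.1 against 18.0 to 22.0 CPM, with 1 of the 7 at 0 in both groups. In mRNA, trophoblast markers (7) summed to 0.286 to 0.447 TPM under the Upf2 label against 0.534 to 1.16 TPM in controls, and each of the other marker sums overlapped between these groups. The part of such cells in the results was not tested.

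**Figure D3:**
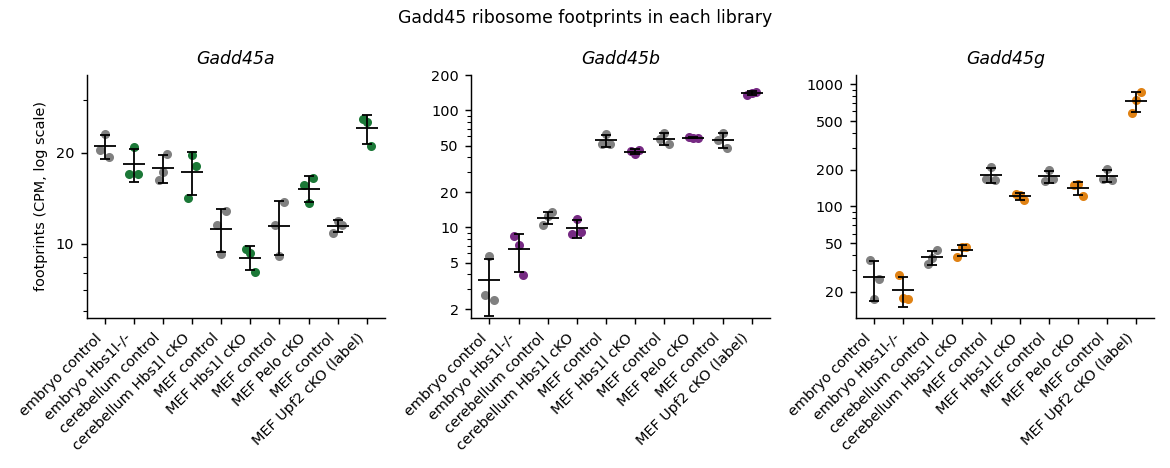
Footprints on each member (y axis, CPM, log scale) in every ribosome profiling library by group (x axis); points are libraries, control libraries are grey, and bars give the mean and SD (n = 3). The libraries labelled Upf2 cKO lie above all other MEF libraries for each member, with Gadd45g at 580 to 858 CPM, and embryos and cerebella lie below MEFs for Gadd45b and Gadd45g.

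Translational efficiency (TE), the change in footprints relative to the change in mRNA, was lower for all 3 members in the libraries labelled Upf2 cKO. The log2 changes in TE were -0.63 for Gadd45a (SE 0.19, adjusted p = 0.0311), -0.91 for Gadd45b (SE 0.19, adjusted p = 0.00433) and -1.87 for Gadd45g (SE 0.22, adjusted p = 0.000119; edgeR interaction of assay and genotype). TE was called lower for 11.8% of 12054 genes and called in either direction for 20.3%. Gadd45g had the 35th lowest TE change of 10012 genes with a mean of at least 5 CPM, Gadd45b the 441st and Gadd45a the 1048th. The member with the largest gain in mRNA had the largest loss in TE and the member with the smallest gain the smallest loss. TE contains the mRNA value, so these orders are not independent of each other. The call on Gadd45a was lost without 5 of the 12 libraries, with an adjusted p of up to 0.0907 without RNA control 3.

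The same shift was seen in levels. Footprint CPM per kilobase of coding sequence divided by mRNA TPM was 3.49 for Gadd45a, 2.96 for Gadd45b and 3.24 for Gadd45g in the controls of this pool, above the median of 1.78 over 8767 genes, and higher than in 82.8%, 76.6% and 80.3% of them. In the libraries labelled Upf2 cKO the ratios were 2.47, 1.71 and 0.956 against a median of 1.80 over 8763 genes, higher than in 64.7%, 47.2% and 22.3% of genes. Thus the 3 mRNAs, which in control MEFs carried similar footprint densities for their level, differed by a factor of more than 2 between Gadd45a and Gadd45g in this mutant. A lower TE was common among genes with more mRNA: of 427 genes whose mRNA was called at least 2-fold higher, 224 (52.5%) were called lower in TE, with a median of -0.69. These genes were chosen on mRNA values that TE contains.

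**Figure D4:**
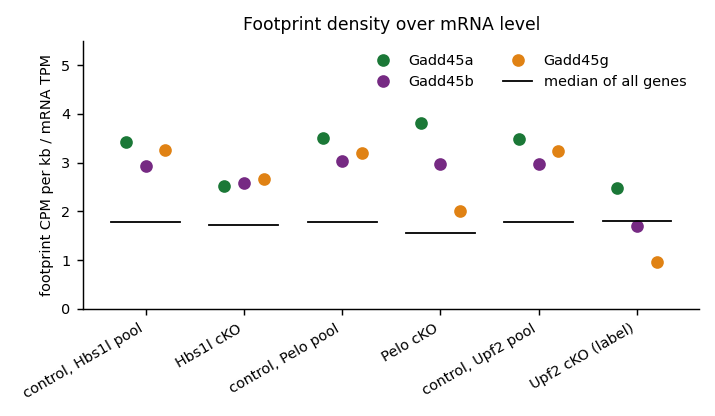
Footprint density over mRNA level (y axis, footprint CPM per kilobase of coding sequence divided by TPM, group means, no error) for each member in the 3 mutants and the controls of their pools (x axis); black lines give the median over all genes with at least 5 CPM in both assays. The 3 members lie between 2.93 and 3.504 in controls, and Gadd45g lies at 0.956 in the libraries labelled Upf2 cKO.

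In Hbs1l cKO MEFs the footprints of Gadd45b and Gadd45g were lower than in controls, with no call on mRNA or TE for any member. Gadd45g gave 127, 125 and 112 CPM against 167, 209 and 163 CPM, and Gadd45b 44.95, 42.0 and 46.3 CPM against 51.8, 63.2 and 51.3 CPM, without overlap. Gadd45a gave 9.62, 9.29 and 8.09 CPM against 11.5, 9.25 and 12.8 CPM, and these groups overlapped. The log2 fold changes were -0.60 for Gadd45g (SE 0.10, adjusted p = 0.000452), -0.34 for Gadd45b (SE 0.10, adjusted p = 0.0180) and -0.33 for Gadd45a (SE 0.16, adjusted p = 0.116). Of 11984 genes, 16.7% were called lower and 34.1% in either direction. The call on Gadd45b was lost without Hbs1l cKO library 1 or 2 or control 2, with adjusted p of 0.0549, 0.0600 and 0.0888. In this comparison macrophage markers summed to 188 to 258 CPM against 107 to 147 CPM in controls and muscle markers (6) to 81.8 to 135 against 197 to 245 CPM. Endothelial markers (7) summed to 38.8 to 43.4 against 69.2 to 82.7 CPM, and epithelial markers (5) to 16.4 to 29.1 against 36.5 to 51.0 CPM. Granule neuron markers (8) summed to 22.1 to 24.2 against 34.8 to 47.9 CPM. Markers of cerebellar glia (7) summed to 23.5 to 29.1 against 18.5 to 22.5 CPM and Purkinje cell markers (5) to 84.7 to 94.0 against 79.2 to 83.6 CPM. Their part was not tested.

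The mRNA values in Hbs1l cKO MEFs were 107, 97.7 and 83.02 TPM for Gadd45g, 40.0, 33.4 and 34.2 TPM for Gadd45b and 7.11, 7.80 and 6.80 TPM for Gadd45a. Gadd45g lay below its controls in every library, and the other members overlapped theirs. With 23.1% of 15318 genes called, none of the 3 passed: the log2 fold change was -0.31 for Gadd45g (SE 0.11, adjusted p = 0.0768), -0.18 for Gadd45b (SE 0.14, adjusted p = 0.356) and 0.12 for Gadd45a (SE 0.13, adjusted p = 0.514). For Gadd45g the adjusted p was 0.0466 by DESeq2 and 0.0447 with a replicate block. In these RNA libraries macrophage markers summed to 134 to 183 TPM against 67.2 to 110.1 TPM in controls. Muscle markers summed to 54.7 to 81.6 against 114 to 120.2 TPM. Epithelial markers summed to 15.7 to 24.9 against 32.2 to 40.9 TPM and endothelial markers to 6.72 to 7.72 against 15.3 to 20.6 TPM. Granule neuron markers summed to 4.12 to 5.93 against 7.25 to 8.06 TPM. Trophoblast markers (7) summed to 0.243 to 0.352 against 0.534 to 1.16 TPM. The embryo marker set (8) summed to 13.8 to 15.8 against 9.84 to 12.7 TPM. Markers of cerebellar glia summed to 6.52 to 7.87 against 5.72 to 6.51 TPM. The part of such cells was not tested. The changes in TE were -0.26, -0.15 and -0.45 in the same order, with adjusted p of 0.427, 0.711 and 0.259, where 0.0336% of 11907 genes were called by edgeR (4 genes, with 2064 at an unadjusted p under 0.05, and 334 genes by DESeq2).

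In Pelo cKO MEFs the 3 members went different ways. Gadd45a footprints were higher, at 15.6, 13.6 and 16.5 CPM against 11.5, 9.12 and 13.8 CPM, and the groups overlapped by 1 pair of libraries. Gadd45b was at 59.2, 58.4 and 58.0 CPM against 56.5, 64.7 and 51.5 CPM. Gadd45g was lower, at 150, 152 and 121 CPM against 161, 199 and 168 CPM, without overlap. The log2 fold changes were 0.40 for Gadd45a (SE 0.15, adjusted p = 0.0481), 0.00 for Gadd45b (SE 0.09, adjusted p = 0.985, with an interval of -0.19 to 0.19 at 2 SE) and -0.34 for Gadd45g (SE 0.12, adjusted p = 0.0370), among 44.1% of 12486 genes called. Both calls were weak: each was lost without 4 of the 6 libraries, with adjusted p of up to 0.163 for Gadd45a and 0.143 for Gadd45g, both without control 2, and DESeq2 gave 0.0636 for Gadd45a. Macrophage markers summed to 420 to 608 CPM in Pelo cKO footprint libraries against 104 to 147 CPM in controls. Endothelial markers (7) summed to 25.4 to 32.7 against 73.6 to 81.5 CPM, granule neuron markers (8) to 15.4 to 18.9 against 33.8 to 45.1 CPM and markers of cerebellar glia (7) to 33.5 to 45.5 against 19.1 to 23.3 CPM. Their part was not tested.

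In the 2 Pelo cKO RNA libraries Gadd45g was at 142 and 154 TPM, above every control, Gadd45b at 41.9 and 40.4 TPM, within the controls, and Gadd45a at 8.29 and 7.84 TPM, above every control. The log2 fold changes of 0.23 (SE 0.12, adjusted p = 0.173), -0.06 (SE 0.14, adjusted p = 0.757) and 0.12 (SE 0.13, adjusted p = 0.518) missed the threshold, where 32.1% of 14705 genes passed. For Gadd45b the mean TPM went the other way, at 41.1 against 39.4 TPM in controls, so that the sign of its change depends on the scale. Without RNA control 1 the adjusted p for Gadd45g was 0.0441. TE was lower for Gadd45g (-0.55, SE 0.19, adjusted p = 0.0288) and not called for Gadd45a (0.30, adjusted p = 0.261) or Gadd45b (0.09, adjusted p = 0.720), against 44.6% of 12143 genes called. The Gadd45g call was lost without 5 of the 11 libraries, with an adjusted p of up to 0.147 without Pelo cKO RNA library 2. In the Pelo cKO RNA libraries muscle markers summed to 137 to 173 TPM against 114 to 120.2 TPM in controls. Epithelial markers summed to 54.2 to 63.8 against 32.2 to 40.9 TPM and fibroblast markers (10) to 7160 to 7766 against 5106 to 6918 TPM. Granule neuron markers summed to 8.498 to 10.1 against 7.25 to 8.06 TPM. Trophoblast markers (7) summed to 0.253 to 0.277 against 0.534 to 1.16 TPM. The part of such cells was not tested.

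**Figure D5:**
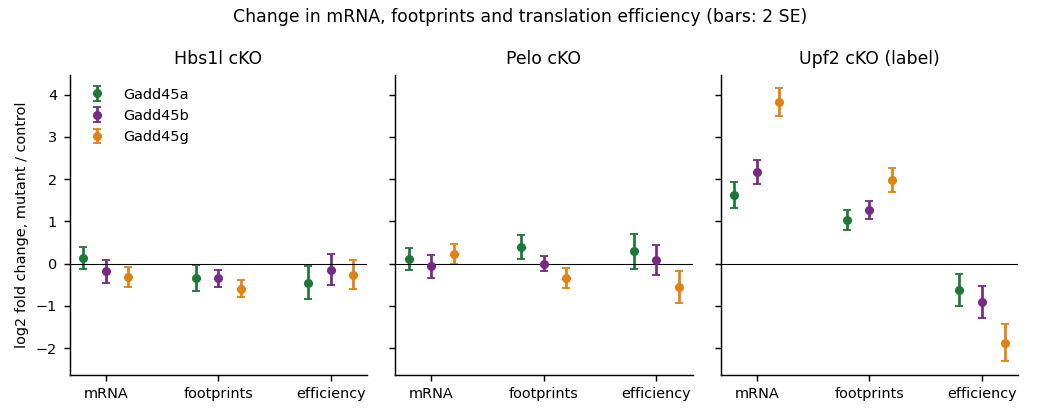
Log2 fold change of each member (y axis, mutant over control; bars give 2 SE from edgeR) in mRNA, footprints and translational efficiency (x axis) for the 3 MEF mutants. Changes in Hbs1l cKO and Pelo cKO MEFs lie between -0.60 and 0.40, while in the libraries labelled Upf2 cKO mRNA changes of 1.63 to 3.83 stand beside efficiency changes of -0.63 to -1.87.

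Set against each other, the mutants differed as follows. All 3 mRNAs were higher in the libraries labelled Upf2 cKO than in Hbs1l cKO MEFs, by log2 fold changes of 1.51 for Gadd45a, 2.36 for Gadd45b and 4.15 for Gadd45g (adjusted p of 0.000166, 2.07e-06 and 2.57e-07 by edgeR, with 27.1% of genes called). Against Pelo cKO MEFs the differences were 1.48, 2.203 and 3.57 (adjusted p of 0.000636, 9.10e-06 and 6.15e-06, with 28.9% called). Between Pelo cKO and Hbs1l cKO MEFs, Gadd45g mRNA was higher in Pelo cKO by 0.58 (SE 0.11, adjusted p = 0.00629, with 35.2% called), and Gadd45a and Gadd45b did not pass (0.03 and 0.16, adjusted p of 0.867 and 0.284). The Gadd45g call gave an adjusted p of 0.0965 without Pelo cKO library 2. In the same libraries muscle markers (6) summed to 137 to 173 TPM in Pelo cKO against 54.7 to 81.6 TPM in Hbs1l cKO. Epithelial markers (5) summed to 54.2 to 63.8 against 15.7 to 24.9 TPM and endothelial markers (7) to 15.4 to 17.9 against 6.72 to 7.72 TPM. Granule neuron markers (8) summed to 8.498 to 10.1 against 4.12 to 5.93 TPM. Purkinje cell markers (5) summed to 8.07 to 8.20 against 4.96 to 5.69 TPM. The embryo marker set (8) summed to 12.3 to 12.9 against 13.8 to 15.8 TPM. Fibroblast markers (10) summed to 4345 to 5323 TPM under the Upf2 label, against 6603 to 8312 TPM in Hbs1l cKO and 7160 to 7766 TPM in Pelo cKO. Against Hbs1l cKO the libraries labelled Upf2 cKO also stood apart in macrophage markers (8; 60.8 to 131 against 134 to 183 TPM), muscle markers (91.1 to 142 against 54.7 to 81.6 TPM) and endothelial markers (9.998 to 15.9 against 6.72 to 7.72 TPM). Against Pelo cKO they stood apart in epithelial markers (21.8 to 43.2 against 54.2 to 63.8 TPM) and granule neuron markers (5.27 to 7.46 against 8.498 to 10.1 TPM). They also stood apart from Pelo cKO in Purkinje cell markers (4.95 to 7.04 against 8.07 to 8.20 TPM). The same held for trophoblast markers (0.286 to 0.447 against 0.253 to 0.277 TPM). The part of such differences in these results was not tested. These comparisons use no control library.

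For footprints, the difference between 2 mutants' changes against their own controls was tested as an interaction, in which the nearly identical controls of both pools enter as separate libraries. The change was larger in the libraries labelled Upf2 cKO than in Hbs1l cKO by 1.36 for Gadd45a, 1.62 for Gadd45b and 2.57 for Gadd45g (adjusted p of 0.000547, 2.45e-05 and 2.21e-06 by edgeR, with 4.93% of genes called). It was larger than in Pelo cKO by 0.63, 1.27 and 2.32 (adjusted p of 0.0399, 0.000169 and 1.55e-05, with 13.0% called), where the call on Gadd45a was lost without 8 of the 12 libraries (adjusted p up to 0.0996, without control 3 of the Pelo pool). Pelo cKO against Hbs1l cKO gave 0.74 for Gadd45a (adjusted p = 0.0612), 0.35 for Gadd45b (adjusted p = 0.1997) and 0.26 for Gadd45g (adjusted p = 0.455), with 5.55% of genes called. The value for Gadd45a passed by DESeq2 (adjusted p = 0.0448) and with a replicate block (0.0249), and without control 2 of the Hbs1l pool (0.0389) or control 3 of the Pelo pool (0.0327). With the mutant libraries compared directly and no controls, a comparison chosen after seeing the data, Gadd45a and Gadd45b passed (0.78 and 0.41, adjusted p of 0.00287 and 0.00387), and here mutant and pool cannot be told apart.

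In Hbs1l mutant embryos and cerebella no member passed the test. In embryos, Gadd45b was at 8.49, 7.12 and 3.89 CPM in Hbs1l -/- against 2.66, 5.65 and 2.39 CPM in wildtype libraries, which rest on 7 to 62 counts. Gadd45a was at 17.0, 20.9 and 17.0 against 20.5, 23.1 and 19.4 CPM, and Gadd45g at 27.4, 17.7 and 17.3 against 36.4, 17.5 and 25.2 CPM. The groups overlapped for each member. The log2 fold changes were 0.88 for Gadd45b (SE 0.46, adjusted p = 0.323, with an interval of -0.05 to 1.81 at 2 SE), -0.18 for Gadd45a (adjusted p = 0.711) and -0.29 for Gadd45g (adjusted p = 0.611), where 1.87% of 11416 genes were called. At this depth a change in Gadd45b of the size seen under the Upf2 label (1.27) lies inside that interval. With single libraries left out, the change ran from 0.65 to 1.41 for Gadd45b and from -0.32 to -0.10 for Gadd45a. For Gadd45g it ran from -0.53 to 0.01, so that its sign was not stable.

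In cerebella, Gadd45b was at 8.71, 11.9 and 9.12 CPM in Atoh-Cre;Hbs1l cKO against 10.5, 12.5 and 13.4 CPM in controls (log2 fold change -0.40, SE 0.18, adjusted p = 0.395). Gadd45a was at 14.2, 19.7 and 18.1 against 16.2, 17.3 and 19.9 CPM (-0.14, adjusted p = 0.761) and Gadd45g at 38.8, 46.2 and 46.2 against 33.7, 37.7 and 43.6 CPM (0.09, adjusted p = 0.796). All 3 overlapped, and 0.0624% of 14430 genes were called. With single libraries left out, the changes ran from -0.56 to -0.30 for Gadd45b, -0.25 to -0.003 for Gadd45a and 0.02 to 0.18 for Gadd45g. The intervals at 2 SE, -0.47 to 0.19 for Gadd45a, -0.76 to -0.03 for Gadd45b and -0.17 to 0.36 for Gadd45g, lay below the increases seen in the libraries labelled Upf2 cKO. For Gadd45b the interval left out 0 although the unadjusted p was 0.0603 by edgeR, so intervals at 2 SE are narrower than the test allows. They also describe bulk tissue that holds undeleted cells, and do not bound the change in the deleted cells. The difference in the effect of Hbs1l loss between embryo and cerebellum missed the threshold, which 0.732% of 14624 genes passed, for Gadd45a (-0.04, adjusted p = 0.989), Gadd45b (1.28, adjusted p = 0.1996) and Gadd45g (-0.37, adjusted p = 0.624). In embryo libraries, muscle markers (6) summed to 436 to 704 CPM in Hbs1l -/- against 1203 to 1281 CPM in wildtype. Fibroblast markers (10) summed to 2092 to 2572 against 2579 to 3375 CPM. Trophoblast markers (7) summed to 181 to 839 against 103 to 124 CPM, epithelial markers (5) to 1474 to 1680 against 1109 to 1205 CPM and endothelial markers (7) to 502 to 699 against 475 to 498 CPM. In cerebella, macrophage markers (8) summed to 151 to 168 CPM in Atoh-Cre;Hbs1l cKO against 115 to 139 CPM in controls. Purkinje cell markers (5) summed to 4555 to 5945 against 5975 to 11148 CPM. Muscle markers (6) there summed to 9.07 to 15.05 against 4.58 to 7.83 CPM, and the embryo marker set (8) to 181 to 195 against 124 to 155 CPM. The part of such cells in these values was not tested.

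Among the 12 annotated transcripts, the mRNA change under the Upf2 label lay in the full-length coding forms. Gadd45g-201 went from 114 ± 4.63 TPM to 1592 ± 140 TPM (SD, n = 3 each), Gadd45b-201 from 37.8 ± 4.07 to 170 ± 2.50 TPM and Gadd45a-201 from 5.95 ± 0.913 to 18.4 ± 2.36 TPM. Their log2 fold changes were 3.78, 2.12 and 1.60, with adjusted p of 0.000340, 0.00181 and 0.00575 by edgeR over 40620 transcripts, of which 4.37% were called higher and 5.35% in either direction. The call on Gadd45a-201 was lost with a replicate block (adjusted p = 0.0765). The retained-intron form Gadd45g-202 was at 2.34 ± 0.543 TPM against 1.43 ± 0.326 TPM (log2 fold change 0.68, adjusted p = 0.317), Gadd45b-202 at 0.615 ± 0.261 against 1.02 ± 0.360 TPM (-0.75, adjusted p = 0.455), and the short coding form Gadd45b-203 at 1.04 ± 0.524 against 0.613 ± 0.161 TPM (0.67, adjusted p = 0.530). The retained-intron share of Gadd45g mRNA was 0.125% to 0.175% in the libraries labelled Upf2 cKO and 1.04% to 1.64% in controls. For Gadd45b the shares were 0.241% to 0.537% and 1.46% to 3.37%, and for Gadd45a, with 4 such forms at few counts, 5.41% to 8.87% and 3.55% to 18.5%. The groups did not overlap for Gadd45g and Gadd45b.

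The coding forms Gadd45a-206 and Gadd45a-207 were listed at 0 in all 11 libraries, and no retained-intron form of Gadd45a passed the filter on low counts. In Hbs1l cKO and Pelo cKO MEFs no transcript of the family was called, where 1.31% and 2.37% of transcripts were. Forms of a gene share most of their reads, so their split is an estimate.

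Other genes of the pathway were taken from lists of partners and effectors of GADD45 (22 genes), known upstream regulators (17) and known NMD targets and NMD factors (24). In the libraries labelled Upf2 cKO, 15 of 24 NMD genes were higher in mRNA and 0 lower, with a median log2 fold change of 0.82 against -0.02 for all genes, of which 13.2% were called higher. Snhg12 (3.70) and Snhg1 (3.34), host genes of small nucleolar RNAs, rose most. Of the 21 NMD genes with footprints, 19 were higher, with a median of 0.80, where 22.3% of all genes were higher. They were led by Atf4 (1.49), a transcription factor of the integrated stress response, and Smg1 (1.45), the kinase of UPF1, and the CDK inhibitor Cdkn1a was lower (-0.46). In TE, 1 was higher and 4 lower, with a median of 0.00 against -0.03 for all genes, close to the 20.3% of all genes called. Hence the 3 Gadd45 genes shared the increase in mRNA and footprints with most of the list, and in TE all 3 members were called lower, as were 11.8% of all genes, where 16 of 21 listed genes were not called. The difference between the members and the list was not tested. Like the members, the lists were chosen with earlier results of these data known, so these counts are descriptions and not independent evidence. The list also had more genes higher than lower in the footprints of the other MEF mutants, which share controls with this one: 10 were higher and 2 lower of 21 in Hbs1l cKO (median 0.28, with 34.1% of all genes called) and 13 and 2 in Pelo cKO (median 0.30, with 44.1% called). Without Hbs1l cKO library 1, 5 in place of 10 were higher in Hbs1l cKO. In mRNA 8 of 24 were higher and 1 lower in Hbs1l cKO (median 0.17, with 23.1% called), and 5 and 6 in Pelo cKO (median 0.04, with 32.1% called). With single libraries left out, the genes called higher in mRNA numbered 4 to 6 in Hbs1l cKO (4 without its library 1 or 2 or control 1 or 2) and 3 to 7 in Pelo cKO (3 without either of its libraries).

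Most regulators were not called in mRNA: under the Upf2 label 3 of 17 were higher and 0 lower, with a median of 0.03, a share near the 13.2% of all genes called higher. These were Ddit3 (3.31), which encodes CHOP, Atf3 (1.90) and Atf4 (1.71), all stress-response transcription factors that the NMD list holds as well. Ddit3 and Atf3 were also lower in TE (-2.52 and -0.97). In Hbs1l cKO mRNA 7 of 17 regulators were higher and 1 lower (median 0.25, with 23.1% of all genes called). With single libraries left out, the higher ones numbered 4 to 7 and the lower ones 0 to 1. In Pelo cKO mRNA 4 were higher and 0 lower (median 0.25, with 32.1% called). The direction over the list was not tested there. In footprints 6 of 17 regulators were called higher and 1 lower under the Upf2 label and 5 and 1 in Hbs1l cKO, shares near the 43.4% and 34.1% of all genes called. In Pelo cKO 11 were higher and 1 lower, where 44.1% of all genes were called, and the direction over the list was not tested. The count of 5 fell to 2 without Hbs1l cKO library 1. The gene called lower was Mdm2, the ubiquitin ligase of p53, which had fewer footprints in all 3 MEF mutants: by -0.60 under the Upf2 label, -0.49 in Hbs1l cKO and -0.76 in Pelo cKO, comparisons that share controls. The further GADD genes, named after the same growth arrest and DNA damage screens, were Ddit3 and Ppp1r15a, the eIF2α phosphatase subunit GADD34. Ppp1r15a mRNA was higher by 1.38 and its TE lower by -1.40 in the libraries labelled Upf2 cKO. In Pelo cKO its mRNA was higher by 0.72 and its TE lower by -0.84.

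Of 22 partners and effectors, 4 were higher in mRNA under the Upf2 label and 1 lower, with a median of -0.01, near the 20.0% of all genes called. Mapk11 (1.04), a p38 kinase, and Ercc5 (0.84), a repair nuclease, were among the higher, and the nucleolar protein gene Npm1 was lower (-0.77), a count of 1 that ran from 0 to 2 with single libraries left out. In footprints 4 of 21 were higher, with Ccnb1 (0.95), the cyclin partner of CDK1, and Tet2 (0.78) in the lead, and 5 were lower, among them Mapk9 (-0.47), which encodes JNK2, and Cdkn1a (-0.46), where 43.4% of all genes were called. In Hbs1l cKO 5 of 21 were higher and 3 lower in footprints, near the 34.1% of all genes called, and in Pelo cKO 7 and 5, where 44.1% were. Of the 3 lower in Hbs1l cKO, 1 was left without Hbs1l cKO library 1, control 1 or control 3. Ccnb1 was again the most increased (0.58 and 0.92), and Mapk9 (-0.31 and -0.59) and Cdkn1a (-0.45 and -0.52) the most decreased. In embryos and cerebella edgeR called 0 of 21 effectors, where it called 1.87% and 0.0624% of all genes (2121 and 1936 genes at an unadjusted p under 0.05, and 432 and 484 genes called by DESeq2).

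The genes most like each member were found by Pearson's r of log2(CPM + 0.5) over the MEF libraries. In mRNA, over 11 libraries and 9911 genes, Gadd45b and Gadd45g were each other's most similar gene (r = 0.995). Gadd45b was followed by B3gntl1 and Gm13841 (0.995 and 0.994), Gadd45g by LTO1 and Armc7 (both 0.995), and Gadd45a was most like Ddit3, Snhg12 and 5430416N02Rik (0.991, 0.989 and 0.989). Footprints were compared over 12 values, 9 mutant libraries and 3 controls summed over the pools. There Gadd45b was most like Gadd45g, Anapc16 and Rps6kc1 (0.975, 0.974 and 0.973), Gadd45g like 9930104L06Rik, Gadd45b and Anapc16 (0.978, 0.975 and 0.973), and Gadd45a like Timm13, Psmd7 and Sdf4 (0.969, 0.949 and 0.945). Between Gadd45a and Gadd45g r was 0.982 in mRNA and 0.824 in footprints. The libraries labelled Upf2 cKO hold the highest values of each member. These correlations are descriptions over libraries that share genotype and depth.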

How the data were processed

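The Gadd45 members and all gene lists were chosen with earlier results of these data known. Per the authors' methods and the labels, footprints were aligned with HISAT2 2.1.0 after rRNA removal with Bowtie2 2.2.3 (mm10) and deposited as raw featureCounts gene counts. RNA-seq was deposited as kallisto 0.42.4 estimated counts and TPM per transcript (Gencode M24). Short footprints shared by paralogs depend on this alignment.

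Estimated counts and TPM were summed per gene, and estimated counts rounded. CPM used library totals. edgeR 4.0.16 (R 4.3.3) tested counts with its default filter, TMM factors, quasi-likelihood F tests and Benjamini-Hochberg adjustment over all genes at 0.05; SE is the log2 fold change divided by the root of F. Histone genes were left out of footprint fits, after the study. TE was an interaction of assay and genotype. Mutants were compared with the controls of their own pool. Scripts were tested on simulated data. Alternatives were DESeq2 1.42.0, RLE factors, no filter, a replicate block, summed controls, 1 fit over 11 RNA libraries, limma 3.58.1 on log2(TPM + 0.1) and leaving out each library.

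Named were the members, the 3 targeted genes, up to 2 increases and 2 decreases per list with a mean of at least 5 CPM, the 3 genes most like each member, and all family transcripts. Atf4 mRNA was named outside this rule after its value was seen. Separate embryos per MEF replicate are stated in the methods only. Where the mapping of the files to a reference was needed, Gencode M21 and RefSeq tables of GRCm38 were used.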

Additional observations from a re-analysis of the deposited data

How the results depend on the processing

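No direction of a called member was reversed under the alternatives run: 731 member values kept their side of the threshold, 39 lost a call and 9 gained one. The gene-level mRNA and footprint calls under the Upf2 label, and the TE calls on Gadd45b and Gadd45g there, held in each alternative run, while the call on the transcript Gadd45a-201 was lost with the replicate block (adjusted p = 0.0765). With DESeq2 calls were lost on Gadd45a footprints in Pelo cKO (0.39) and on Gadd45a between MEFs and embryos (-0.44, and -0.38 without the low count filter), and gained on Gadd45g mRNA in Hbs1l cKO (-0.32) and on the Gadd45a footprint difference between Pelo cKO and Hbs1l cKO (0.73, adjusted p = 0.0448). Same-numbered mutant and control samples did not deviate together throughout (r of -0.24 to 0.28), so mutants were not paired with controls by number, although same-numbered MEF controls of different pools were nearly identical. With the replicate block Gadd45g mRNA in Hbs1l cKO was -0.31 (adjusted p = 0.0447) and the Gadd45a difference between Pelo cKO and Hbs1l cKO 0.75 (adjusted p = 0.0249). Compared directly without controls, a choice made after seeing the data, Pelo cKO exceeded Hbs1l cKO by 0.78 for Gadd45a and 0.41 for Gadd45b.

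With single libraries left out, the calls that changed ranged from -0.40 to -0.22 for Gadd45b (footprints in Hbs1l cKO), 0.26 to 0.54 for Gadd45a (footprints in Pelo cKO), -0.41 to -0.22 for Gadd45g (footprints in Pelo cKO), 0.088 to 0.36 for Gadd45g (mRNA in Pelo cKO), -0.69 to -0.42 for Gadd45g (TE in Pelo cKO), -0.75 to -0.55 for Gadd45a (TE under the Upf2 label), 0.44 to 0.70 for Gadd45g (mRNA of Pelo cKO against Hbs1l cKO), 0.60 to 0.88 for Gadd45a (the footprint difference between Pelo cKO and Hbs1l cKO), 0.48 to 0.76 for Gadd45a (the footprint difference between the Upf2 label and Pelo cKO), -0.97 to -0.44 for Gadd45g (control embryos against cerebella) and -0.51 to -0.30 for Gadd45a (control MEFs against embryos).

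Counts of called features moved by over 1.5 times as follows. Embryo footprints went from 214 to 432 with DESeq2, 703 without the filter and 564 with the block, and cerebellar footprints from 9 to 484, 16 and 0. TE in Hbs1l cKO went from 4 to 334, 22 and 1, and to 10 with summed controls. limma on TPM gave 2031, 2360 and 1629 mRNA calls in Hbs1l cKO, Pelo cKO and under the Upf2 label, against 3542, 4727 and 3194. The block gave 2955 in Pelo cKO and, for Pelo cKO against Hbs1l cKO, 3030 against 5235. Transcript calls went from 481, 826 and 2175 to 3786, 4587 and 5639 with DESeq2 and 0, 0 and 112 with the block, and for Hbs1l cKO to 265 without the filter. Without controls, mutant footprint comparisons gave 1950, 1928 and 3303 calls against 695, 608 and 1648, and DESeq2 gave 585 against 107 for embryo against cerebellum. With single libraries left out, the counts were 28 to 2309 in embryos (2309 without Hbs1l -/- library 1), 0 to 560 in cerebella (560 without control 3), 8 to 1123 for embryo against cerebellum and 0 to 67 for TE in Hbs1l cKO. For mRNA they were 1817 to 2663 in Hbs1l cKO, 1506 to 4802 in Pelo cKO (1743 and 1506 without its library 1 and 2) and 1800 to 3201 under the Upf2 label. For the mRNA of mutants against each other they were 1944 to 6601 (Pelo cKO against Hbs1l cKO), 1460 to 5624 (Upf2 label against Pelo cKO) and 2685 to 3771 (Upf2 label against Hbs1l cKO, 4403 with all). For footprint differences they were 384 to 735 (Pelo cKO against Hbs1l cKO), 353 to 583 (Upf2 label against Hbs1l cKO) and 1097 to 1743 (Upf2 label against Pelo cKO). TE under the Upf2 label gave 1507 to 2840 (2446 with all). Transcripts gave 0 in Hbs1l cKO and Pelo cKO and 567 to 1278 under the Upf2 label. Causes were not tested. Gadd45b in embryos rests on 7 to 62 counts a library, which limits the precision of its change.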
